A study of Mus musculus with 2 samples.

Results

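A set of 9 genes of the B cell antigen receptor and its coreceptors was followed through DNase-seq maps of mouse spleen. DNase-seq cuts accessible chromatin with the nuclease DNase I, so that peaks of cut density mark open promoters and regulatory elements, and short protected stretches inside them, called footprints, mark places where few cuts fell. The genes were *Cd79a*, *Cd79b*, *Ms4a1*, *Cd22*, *Cr2*, *Syk*, *Blk*, *Blnk* and *Btk*, among the 21938 protein-coding genes of the annotation used (GENCODE M21, mouse assembly mm10). They were taken by name, with earlier results of these data known. For each gene, peaks were collected within 500 bp of any annotated transcription start site (TSS), inside the gene, and up to 50 kb beyond either end of it.

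The data were 2 libraries of whole spleen from male B6CASTF1/J mice, 10 days old, numbered in the labels as biological replicates 1 and 2 of a single group. B6CASTF1/J animals are first-generation hybrids of a C57BL/6 and a *Mus musculus castaneus* parent, and the deposited lists do not separate the parental alleles. No treatment or second condition was included, so no contrast between groups was made. The labels give both libraries the same donor identifier and separate biosamples, so spread between them may be partly technical.

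The B cell antigen receptor is a membrane immunoglobulin paired with the CD79a and CD79b chains, whose cytoplasmic tails are phosphorylated when antigen binds. The tyrosine kinase SYK docks on these tails and, with the adaptor BLNK and the kinase BTK, passes the signal to phospholipase C. Coreceptors tune that signal, with the complement receptor CR2 raising it and CD22 lowering it. The spleen of a young mouse holds maturing B cells beside many red cell precursors.

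Replicate 1 held 130476 peaks with a median signal of 0.578, and replicate 2 held 95847 peaks with a median signal of 0.553. The signal is the cut density that was deposited for each peak, and neither its scaling constant nor the read depth is stated in the labels or README. Peaks of both libraries that overlapped by at least 1 bp were merged, and 73150 sites had a peak in both. Promoter peaks in both libraries were found for 6 of 6 B cell markers and 7 of 7 red cell markers, beside 60.7% of all protein-coding genes. They were found for 3 of 6 T cell markers, 3 of 5 red pulp macrophage markers and 3 of 5 neutrophil markers, counts near that share. Of the B cell markers, *Cd79a*, *Cd79b* and *Ms4a1* are themselves among the 9 genes. Among markers of spleen stroma and patterning, *Tlx1*, *Nkx2-3* and *Madcam1* had such a peak and *Nkx2-5*, *Ccl19* and *Ccl21a* did not. None of 6 genes of liver, pancreas and heart did. In such a mixture, fewer cells of a type and less open chromatin per cell cannot be told apart.

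All 9 receptor and coreceptor genes were open at the promoter, with a peak there in both libraries, beside 60.7% of all protein-coding genes. Their promoter peaks were low among open promoters, those with a peak. The median signal of the strongest promoter peak was 3.93 in replicate 1 and 1.18 in replicate 2 for these genes, against 8.54 and 3.55 for the 13323 protein-coding genes with a promoter peak in both. Every one of the 9 lay below that median in both libraries.

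**Figure D1:**
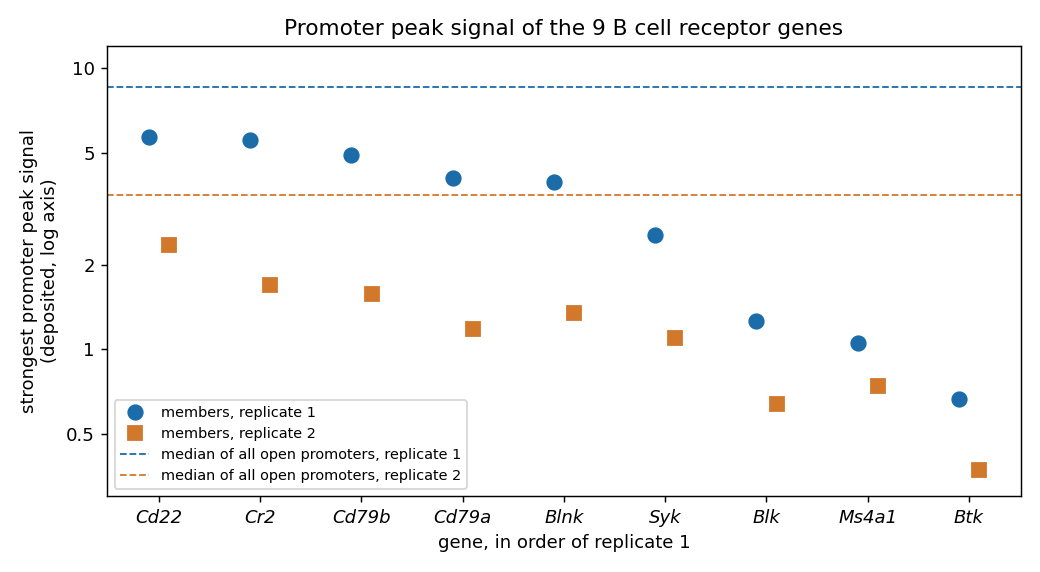
Signal of the strongest promoter peak (deposited cut density, log axis) for each of the 9 genes in replicate 1 (circles) and replicate 2 (squares). Dashed lines give the median of each library over all protein-coding genes with a promoter peak in both libraries. Values run from 5.71 and 2.34 at *Cd22* to 0.668 and 0.373 at *Btk*, all below the dashed line of their own library.

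The receptor's signalling chains stood in the upper part of this range. *Cd79a* (ENSMUSG00000003379.7, chr7:24897381-24902197, plus strand) encodes Igα and is among the first genes switched on in B lineage cells. Its promoter peak reached 4.08 in replicate 1 and 1.18 in replicate 2, at percentiles 39.1 and 25.6 of all promoters with a peak in that library. *Cd79b* (ENSMUSG00000040592.11, chr11:106311341-106314762, minus strand) encodes the partner chain Igβ. Its promoter peak had signals of 4.89 and 1.57 in replicates 1 and 2, at percentiles 42.5 and 30.6. The pair of chains thus had similar promoter signals, and in both libraries *Cd79b* was the higher. *Ms4a1* (ENSMUSG00000024673.9, chr19:11249675-11266241, minus strand), which encodes the B cell surface protein CD20, was far lower, with 1.05 and 0.741 at percentiles 21.5 and 18.5. A weaker peak beside it, farther upstream of the *Ms4a1* start, had 0.799 and 0.532.

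The sequences of the promoter peaks of *Cd79a* and *Cd79b* are shown because they hold the footprints and the consensus letters described further on. They were read from the GRCm38.p6 reference, run 5′ to 3′ on the strand of the gene, and leave out bases annotated as untranslated region. Other transcribed bases were kept. The *Cd79b* stretch lies inside the gene, from 98 to 232 bp downstream of its most upstream TSS. Capitals mark bases in a footprint of at least 1 library.
*Cd79a* promoter, chr7:24897241-24897380, ending 1 bp before the TSS: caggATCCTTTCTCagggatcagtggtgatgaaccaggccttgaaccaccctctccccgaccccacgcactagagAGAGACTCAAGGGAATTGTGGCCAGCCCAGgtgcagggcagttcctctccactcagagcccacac
*Cd79b* promoter, chr11:106314530-106314664, ending 1 bp before its nearest TSS: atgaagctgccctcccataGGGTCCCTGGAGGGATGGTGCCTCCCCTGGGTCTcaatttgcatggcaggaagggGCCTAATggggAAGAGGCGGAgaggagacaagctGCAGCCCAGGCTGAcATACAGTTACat

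The coreceptors carried the highest promoter peaks of the 9 genes, at *Cd22* through a peak at an internal start. *Cd22* (ENSMUSG00000030577.14, chr7:30865402-30880342, minus strand) encodes an inhibitory receptor for sialic acids, and its strongest promoter peak had 5.71 in replicate 1 and 2.34 in replicate 2, at percentiles 45.7 and 38.9. That peak lay at an internal TSS, 7.05 kb downstream of the most upstream of the 15 annotated start positions, over untranslated exon sequence. It also lies at a start of another annotated gene, *Gm29439*. The peak at the most upstream start of *Cd22* had 3.07 and 1.11, below the promoter values of *Cr2*, *Cd79b*, *Cd79a* and *Blnk*, and another peak 1.19 kb downstream of that start had 1.01 and 0.578. *Cr2* (ENSMUSG00000026616.15, chr1:195136811-195176716, minus strand) encodes a complement receptor that acts as a coreceptor of the B cell antigen receptor. Its single promoter peak had 5.55 and 1.70, at percentiles 45.2 and 32.0. *Cr2* was second in both libraries, and after it the order of the genes was the same in both except that *Cd79a* and *Blnk*, and *Blk* and *Ms4a1*, changed places.
*Cr2* promoter, chr1:195176717-195176860, ending 1 bp before the TSS: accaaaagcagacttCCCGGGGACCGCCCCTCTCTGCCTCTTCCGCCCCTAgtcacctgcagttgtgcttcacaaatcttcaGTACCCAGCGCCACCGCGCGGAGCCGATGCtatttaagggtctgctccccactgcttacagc
*Cd22*, part of the weakest of its promoter peaks (1.01 and 0.578), chr7:30879029-30879176, shown for its EBF letters: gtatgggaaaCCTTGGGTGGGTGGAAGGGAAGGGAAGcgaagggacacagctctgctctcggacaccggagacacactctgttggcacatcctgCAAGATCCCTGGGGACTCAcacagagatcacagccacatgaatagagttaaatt

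The cytoplasmic kinases and the adaptor covered the whole range. *Blnk* (ENSMUSG00000061132.13, chr19:40928927-40994535, minus strand), the adaptor, had promoter signals of 3.93 and 1.34 in replicates 1 and 2, at percentiles 38.4 and 27.6. *Syk* (ENSMUSG00000021457.14, chr13:52583173-52648792, plus strand), which many blood cell types use, had its strongest promoter peak at 2.54 in replicate 1 and 1.10 in replicate 2, at percentiles 32.1 and 24.4. These came from neighbouring sites: chr13:52582941-52583700 had 2.54 and 0.971, and chr13:52582521-52582860 had 2.32 and 1.10. Its 3 promoter sites with a peak in both libraries included one at an internal start 13.7 kb downstream, with 0.694 and 0.569. *Blk* (ENSMUSG00000014453.4, chr14:63372836-63417037, minus strand), a Src-family kinase of B cells, had 1.26 and 0.641, at percentiles 23.6 and 16.4.
*Syk* promoter, the part of the site at chr13:52582941-52583172, ending 1 bp before the TSS: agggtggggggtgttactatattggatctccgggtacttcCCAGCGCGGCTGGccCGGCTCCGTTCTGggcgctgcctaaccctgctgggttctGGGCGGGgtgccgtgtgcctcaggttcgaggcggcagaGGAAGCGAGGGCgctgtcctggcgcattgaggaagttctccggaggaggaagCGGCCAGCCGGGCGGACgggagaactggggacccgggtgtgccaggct
*Blk* promoter, chr14:63417038-63417337, ending 1 bp before the TSS: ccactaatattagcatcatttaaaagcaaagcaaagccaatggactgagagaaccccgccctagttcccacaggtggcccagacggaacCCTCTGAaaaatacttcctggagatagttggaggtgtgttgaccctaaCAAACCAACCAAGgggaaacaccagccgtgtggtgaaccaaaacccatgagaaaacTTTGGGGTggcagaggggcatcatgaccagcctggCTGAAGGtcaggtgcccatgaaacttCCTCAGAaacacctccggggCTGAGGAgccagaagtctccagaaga

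*Btk* (ENSMUSG00000031264.13, chrX:134542336-134583570, minus strand), the Tec-family kinase whose loss blocks B cell development in humans, had the lowest promoter signal of the 9. Its strongest promoter peak had 0.668 in replicate 1 and 0.373 in replicate 2, at percentiles 15.6 and 8.53. The other promoter sites of *Btk* in both libraries had 0.551 and 0.281, and 0.353 and 0.260, and one more had a peak of 0.401 in replicate 1 only. *Btk* is the only X-linked gene of the 9, and these males carry a single X chromosome. Of 948 X-linked protein-coding genes, 408 (43.0%) were open at the promoter in both libraries, and of 20807 autosomal ones 62.1% were. Median signals over all X-linked genes with a promoter peak in the given library, whether or not in the other, were 2.67 and 1.43. The autosomal medians, taken likewise, were 7.20 and 3.61. Among the same X-linked promoters of each library, *Btk* stood at percentiles 29.2 and 22.5. Its promoter was low also among genes of its own chromosome.

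The deposited false discovery rate of the cut rate, a value per stretch of bases for whether cuts exceed the local background, was lowest at *Cr2* and highest at *Btk*. Its lowest value in the promoter windows was 6.01e-51 in replicate 1 and 2.53e-25 in replicate 2 at *Cr2*, and at *Btk* it was 3.79e-05 and 0.0008. The other genes lay between these values in replicate 1, and in replicate 2 as well. Within the gene, the share of bases with a listed rate below 0.05 was highest in the 2 compact genes: 22.5% and 15.8% of *Cd79b*, and 16.9% and 15.3% of *Cd79a*. The lowest share was that of *Cr2*, with 0.902% and 0.393%. In the remaining 6 genes it lay between 1.80% and 4.83% in replicate 1 and between 2.15% and 3.86% in replicate 2.

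The promoters of these genes, except that of *Syk*, were poor in CpG dinucleotides. The ratio of observed to expected CpG within 500 bp of the most upstream TSS was 0.768 at *Syk*, 0.367 at *Cr2*, 0.331 at *Cd79a*, 0.258 at *Cd22* and 0.256 at *Blnk*. It was 0.177 at *Cd79b*, 0.165 at *Btk*, 0.137 at *Ms4a1* and 0.113 at *Blk*. The median of the 9 was 0.256, against 0.552 over all protein-coding genes and 0.713 over those with a promoter peak in both libraries. A low ratio was not particular to the members. The median was 0.307 over 26 other genes of the B cell receptor pathway and 0.288 over 13 T cell receptor and signalling genes. Over 12 B lineage transcription factors and cofactors it was 0.707. All 8 members with a ratio below 0.4, a limit chosen after the members' values were seen, were open at the promoter in both libraries. Of the 8785 protein-coding genes below that limit, 23.2% were. At or above that limit, 85.8% of genes were.

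Against open promoters of like CpG content, most members lay near or above the middle. The median promoter signal of the 8 CpG-poor members was 4.004 in replicate 1 and 1.26 in replicate 2, against 2.36 and 1.19 for the 2041 open CpG-poor promoters. Among those promoters *Cd22* stood at percentiles 71.3 and 68.8, *Cr2* at 70.6 and 60.4 and *Cd79b* at 67.8 and 58.3. *Blnk* stood at 62.4 and 53.5 and *Cd79a* at 63.4 and 49.9, so that these 5 genes were at or above about the middle of that set. The peak ranked for *Cd22* lay 7.05 kb and that for *Btk* 1.18 kb from the most upstream start, around which the CpG ratio was taken. At its most upstream start *Cd22* had 3.07 and 1.11, above the median of open CpG-poor promoters in replicate 1 and below it in replicate 2. With these values for *Cd22*, the median of the CpG-poor members would still lie above 2.36 in replicate 1 but below 1.19 in replicate 2. *Ms4a1* (29.6 and 36.1), *Blk* (34.0 and 31.5) and *Btk* (17.5 and 14.1) lay in the lower part.

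**Figure D2:**
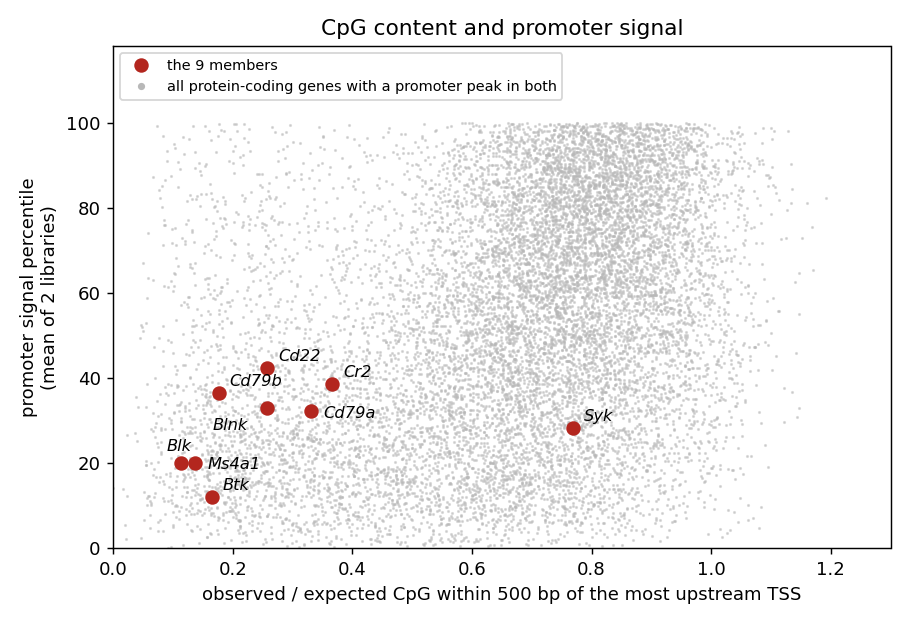
Percentile of the promoter signal (mean of the 2 libraries) against the observed over expected CpG ratio within 500 bp of the most upstream TSS, for the 9 members (large points) and all protein-coding genes with a promoter peak in both libraries (small grey points). All members but *Syk* lie left of 0.4, away from the dense cloud of open promoters, and *Syk* lies inside it at 0.768.

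Genes of other lists put these values in place. Of 26 other genes of the B cell receptor pathway, 25 had a promoter peak in both libraries, with median signals of 3.94 and 1.53 in replicates 1 and 2. The exception was *Fcer2a*, the low-affinity IgE receptor of mature B cells, which had a promoter peak in neither library. The highest were *Sh3bp2* (35.8 and 13.6), *Grb2* (26.2 and 9.22) and *Bcl10* (27.0 and 8.96), adaptors that many cell types use. Of 12 B lineage transcription factors and cofactors, 12 had a promoter peak in both, with medians of 4.20 and 2.27. Of 13 T cell receptor and signalling genes, 9 (69.2%) did, with medians of 0.705 and 0.469. For comparison, the share over the whole annotation was 60.7%, so the T cell count was not low. Among these T cell genes *Lck*, at 14.9 and 5.70, lay above every member in both libraries. The other open ones lay below the members' medians in both. Members, other pathway genes and B lineage factors thus had similar medians in replicate 1, and the T cell genes had lower ones in both libraries. The protein-coding genes outside these lists with promoter signals nearest to the members' medians were *Krba1* (3.96 and 1.18), *Abhd6* (3.91 and 1.22) and *Ppp3cc* (3.92 and 1.15), by Euclidean distance of log2 signal over the 2 libraries.

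Beyond promoters, the 9 windows held 110 sites with a peak in both libraries and 56 with a peak in only 1. Of the 110, 16 were promoter sites of the members, 15 lay inside a member outside promoters, 60 were distal, and 19 lay at promoters of neighbouring genes. By midpoint, 26 sites lay inside the members, promoter sites included, and 7 of the 9 genes held at least 1, beside 60.7% of all protein-coding genes. Leaving out sites at promoters, 6 of the 9 held at least 1, beside 43.3%. Per 10 kb of gene the median was 0.914 sites for the members and 0.299 for all protein-coding genes. This density was not particular to the members. It was 0.963 for the other pathway genes, 0.956 for the B lineage factors and 0.441 for the T cell genes. The compact receptor chains were densest, with 6.23 sites per 10 kb in *Cd79a* and 5.84 in *Cd79b*. *Ms4a1* and *Cr2* held none, although *Cr2* spans 39.9 kb. Distal sites had a median of 6 for each member and 3 for all protein-coding genes, of which 79.7% had at least 1. Their median was 5.5 for the other pathway genes, 7 for the B lineage factors and 5 for the T cell genes. *Syk* had 13, *Cd79a* 11, *Cd79b* 10, *Blnk* 9, *Blk* and *Cd22* 6 each, *Btk* 3, *Ms4a1* 2 and *Cr2* none. Of the 60 distal sites, 46 lay in no protein-coding gene and 14 lay inside a neighbouring one.

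**Figure D3:**
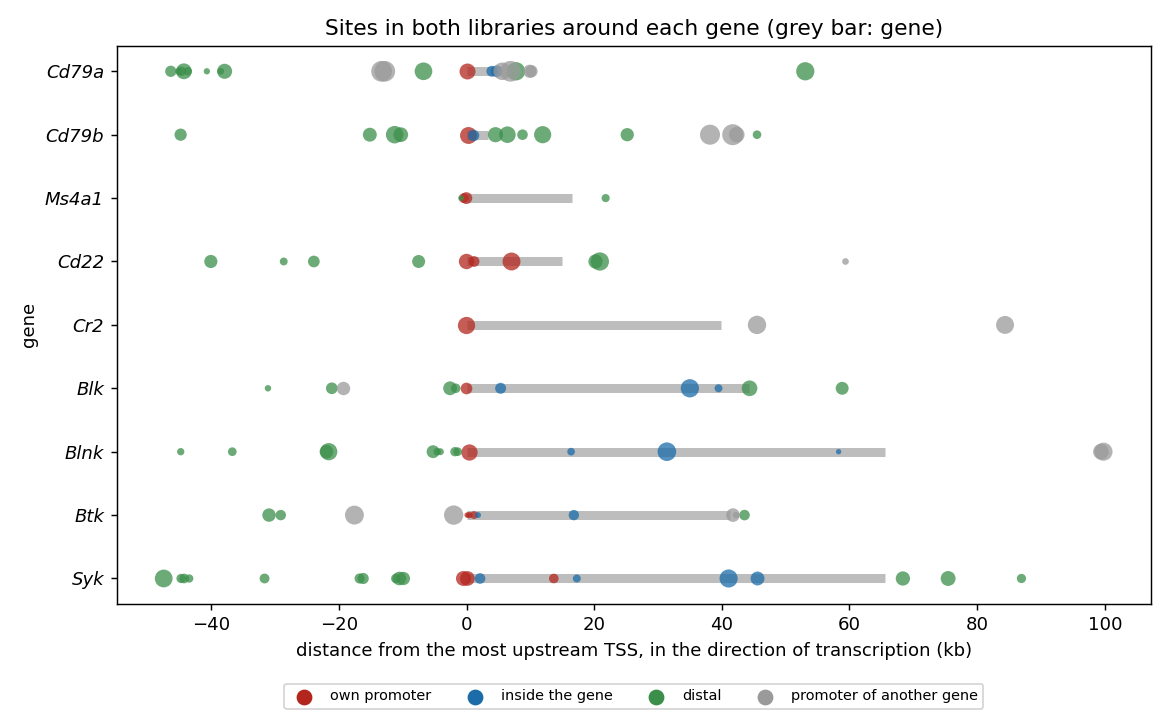
Sites with a peak in both libraries around each member, by distance from its most upstream TSS in kb along the direction of transcription, with the gene as a grey bar. Colour gives the class of site and the area of a point grows with its mean within-library percentile. *Cr2* has a promoter site and 2 sites at promoters of other genes and no others, while *Syk* has 20 sites across the window.

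In 4 of the 6 genes with an open site inside them outside promoters, that site was stronger than the gene's own promoter in both libraries, beside 20.4% of all protein-coding genes with such a pair of sites and 38.0% of those that are CpG-poor. The strongest site inside *Blnk* (chr19:40963061-40963220, intron, 31.4 kb from the most upstream TSS) had 6.55 in replicate 1 and 3.17 in replicate 2, against 3.93 and 1.34 at the *Blnk* promoter. Inside *Blk* (chr14:63381941-63382140, intron, 35.0 kb) the site had 6.52 and 2.62, against 1.26 and 0.641 at the promoter. Inside *Syk* (chr13:52624141-52624340, 41.1 kb) it had 5.84 and 2.55, against 2.54 and 1.10. This *Syk* site lies in an intron of the coding transcripts and in an exon of a transcript annotated as retained intron. Inside *Btk* (chrX:134566681-134566820, intron, 16.8 kb) it had 1.01 and 0.532, against 0.668 and 0.373. All 4 genes encode the cytoplasmic kinases and adaptor of the pathway. They are also long, from 41.2 kb (*Btk*) to 65.6 kb (*Syk*), against 4.82 kb for *Cd79a* and 3.42 kb for *Cd79b*. Function and gene length cannot be told apart here, and the shares above were not matched for length. In *Cd79a* and *Cd79b* the strongest inside site was weaker than the promoter: 0.926 and 0.779 at the end of *Cd79a* (chr7:24901876-24902360), and 1.16 and 0.649 in an intron of *Cd79b* (chr11:106313621-106313840).

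These 4 internal sites are printed for their footprints. As above, capitals mark footprint bases of at least 1 library and the strand is that of the gene.
*Blnk* intron, chr19:40963061-40963220: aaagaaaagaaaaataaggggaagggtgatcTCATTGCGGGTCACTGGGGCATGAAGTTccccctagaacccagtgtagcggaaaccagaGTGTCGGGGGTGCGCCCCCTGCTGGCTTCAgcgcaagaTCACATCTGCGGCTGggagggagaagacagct
*Blk* intron, chr14:63381941-63382140: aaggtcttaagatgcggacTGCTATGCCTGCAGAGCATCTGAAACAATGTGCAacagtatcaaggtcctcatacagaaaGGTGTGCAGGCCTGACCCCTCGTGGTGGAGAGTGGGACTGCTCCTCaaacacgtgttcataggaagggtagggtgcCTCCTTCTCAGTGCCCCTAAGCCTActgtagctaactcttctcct
*Syk* intron, chr13:52624141-52624340: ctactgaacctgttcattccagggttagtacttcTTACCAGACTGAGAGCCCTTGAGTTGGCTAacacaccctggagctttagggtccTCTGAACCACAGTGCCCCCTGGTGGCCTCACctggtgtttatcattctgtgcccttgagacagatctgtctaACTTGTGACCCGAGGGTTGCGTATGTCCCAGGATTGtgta
*Btk* intron, chrX:134566681-134566820: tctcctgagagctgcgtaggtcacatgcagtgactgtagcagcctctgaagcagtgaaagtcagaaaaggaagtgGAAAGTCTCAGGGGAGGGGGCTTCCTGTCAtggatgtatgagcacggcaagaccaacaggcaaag

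The strongest distal site exceeded the promoter in both libraries at 5 of 8 members, beside 28.6% of all protein-coding genes with a distal site and a promoter peak and 53.4% of those that are CpG-poor. The highest was at *Cd22* (chr7:30859361-30859540, in untranslated sequence of the neighbour *Ffar1*), with 6.76 in replicate 1 and 2.58 in replicate 2. At *Cd79a* (chr7:24905041-24905220, in an intron of *Arhgef1*) it had 5.50 and 3.02, and at *Syk* (chr13:52535661-52535800, intergenic, 47.4 kb upstream) 4.98 and 2.33. *Blk* (chr14:63372601-63372780, intergenic, just past the end of the gene) had 2.84 and 1.27, and *Btk* (chrX:134614421-134614600, intergenic) had 1.48 and 0.917. At *Cd79b* (chr11:106325921-106326120, in an intron of *Scn4a*) the values were 4.13 and 2.27, and at *Blnk* (chr19:41016021-41016220, intergenic) 3.57 and 2.23. Both of these exceeded the promoter in replicate 2 only. At *Ms4a1* the strongest distal site (chr19:11244321-11244560, intergenic) had 0.626 and 0.431, below its promoter, so that *Ms4a1* was low at every kind of site. The shares of genes given above were not matched for the number of distal sites, with a median of 6 for the members and 3 for all protein-coding genes.

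The same 9 genes could be read for how the libraries differed. Over all sites in both libraries the median log2 ratio of replicate 1 to replicate 2 was 0.84, with an SD of 0.58 across sites, and the ratios below are given relative to that median. At the members' promoters the relative ratio was 0.94 at *Cd79a*, 0.87 at *Cr2*, 0.80 at *Cd79b*, 0.71 at *Blnk*, 0.44 at *Cd22*, 0.37 at *Syk* (strongest peak of each library), 0.13 at *Blk*, 0.00 at *Btk* and -0.33 at *Ms4a1*. Their median was 0.44, and so was that of all open promoters, each taken from the strongest promoter peak of each library. The *Syk* value sets neighbouring sites against each other. Within a site the *Syk* ratios were 0.55 (chr13:52582941-52583700) and 0.24 (chr13:52582521-52582860), and with 0.55 for *Syk* the members' median would be 0.55. The members' 15 inside sites had a median relative ratio of 0.00, with 8 above 0 and 7 below. Their 60 distal sites had a median of -0.13, with 22 above 0 and 38 below. The value 0 is the median over all classes of site together, and no median was taken over all inside or all distal sites. Whether the members' inside and distal sites differ from others of their class was thus not tested.

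Few sites stood apart by a log2 unit or more. Relative to the genome median, 2 of the members' 110 sites were at least 1 log2 unit lower in replicate 1, beside 6.09% of all sites in both libraries. One lay upstream of *Blnk* (chr19:41016321-41016640), with 0.866 in replicate 1 and 1.67 in replicate 2, a relative log2 ratio of -1.78. The other lay past the end of *Syk* (chr13:52651441-52651640), with 0.971 and 1.96, a relative log2 ratio of -1.85. One site was at least 1 log2 unit higher, beside 0.819% of all sites, in *Scn4a* near *Cd79b* (chr11:106324941-106325180), with 3.30 and 0.888 and a relative ratio of 1.06. The *Blnk* site lies next to the strongest distal site of that gene, whose relative ratio was -0.16, so that neighbouring sites differed.

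**Figure D4:**
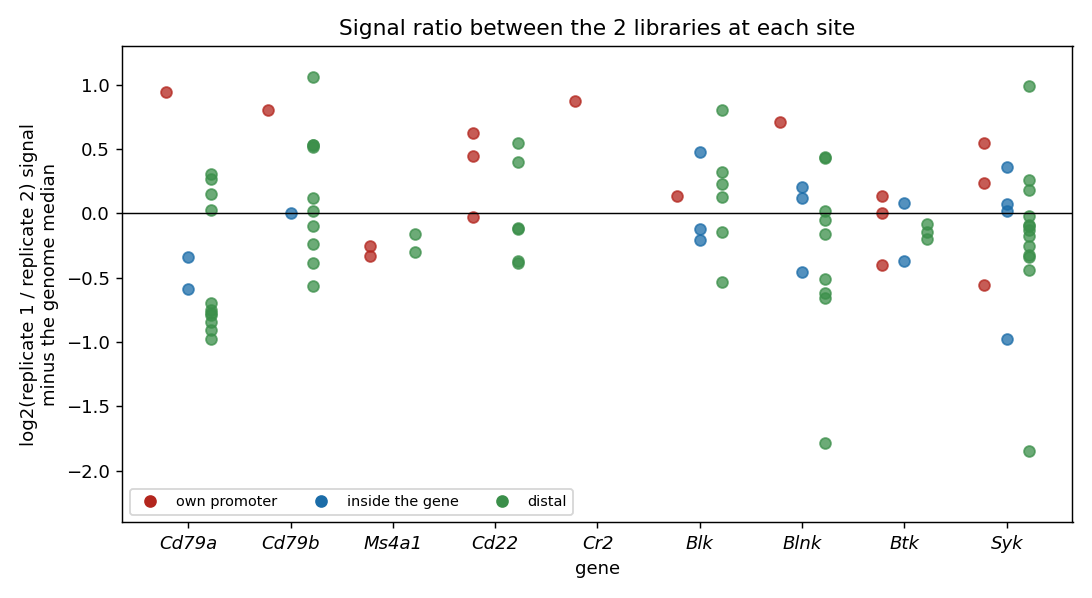
Log2 ratio of replicate 1 to replicate 2 signal, minus the median over all sites in both libraries, for each promoter, inside and distal site of the 9 genes; the line at 0 is the genome median. Most points lie between -1 and 1, and single distal sites of *Blnk* (-1.78) and *Syk* (-1.85) lie far below.

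Footprints of the members had densities near those of all sites. The members' promoter sites held 61 footprints in replicate 1 and 53 in replicate 2, or 12.5 and 10.8 per kb, against 11.96 and 10.9 per kb in all promoter sites. Of the 61, 22 (36.1%) overlapped a footprint of replicate 2, and at all promoter sites 55.8% did. This difference was not tested, and the shares were not matched for peak signal, which had a lower median at the members' promoters. The members' inside sites held 37 and 34 footprints, of which 18 of the 37 (48.6%) overlapped, and at all inside sites 50.3% did. Over promoter and inside sites together, *Syk* had 32 footprints in replicate 1 and 30 in replicate 2 with 14 overlapping, and *Cd79a* had 14 and 10 with 6 overlapping. At *Cd79b* 1 of 8 overlapped, at *Ms4a1* 1 of 8 and at *Blk* 3 of 12. At *Cr2* all 3 footprints of replicate 1 recurred, at *Blnk* 5 of 7, at *Cd22* 4 of 6 and at *Btk* 3 of 8.

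Consensus letters of 13 factors were then searched on both strands in the footprints, merged over the libraries and extended by 5 bp on either side. The members' promoter sites gave 87 merged footprints and their inside sites 52. EBF (CCCNNGGG), the consensus of early B cell factors, was found in 3 (3.45%) of the promoter footprints, beside 2.41% of all promoter footprints. The 3 were in *Cd79b*, *Cd22* and *Ms4a1*. In *Cd79b* it lay in a footprint of both libraries, and in the printed sequence it reads CCCCTGGG, upstream of the octamer ATTTGCAT, which lay outside footprints. In *Cd22* the letters CCCTGGGG lay in a footprint of both libraries, and in *Ms4a1* the match lay in a footprint of replicate 1. A further match, CCCGAGGG, lay in a footprint of both libraries in the strong *Syk* intron site, the only EBF match in the members' inside footprints, beside 1.52% of all inside footprints.

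PU.1 and SPI-B, ETS-family factors of B and myeloid cells, share the letters GAGGAAG. These were found in 3 promoter footprints, in *Cd22*, *Blk* and *Syk*, beside 0.728% of all promoter footprints. They were also in 1 inside footprint, in *Blk*, beside 1.03%. The *Blk* and *Syk* matches lay in footprints of replicate 2 only. The *Cd22* match lay in a footprint of both libraries, and it overlaps a match to the CTCF letters described below. SP letters (GGGCGG), bound by widely expressed factors, were found in 3 promoter footprints, in *Cr2* and *Syk*, beside 15.8%, and in no inside footprint, beside 2.78%. The SP letters contain a CpG, and these shares were not matched for CpG content, which was low at most members' promoters. E-box letters (CAGCTG) were in 1 promoter footprint, beside 1.26%, and in 2 inside footprints, beside 2.29%. RUNX letters, spelled TGTGGT, were in no promoter footprint, beside 0.819%, and in 2 inside footprints of *Syk*, beside 2.47%. The ETS-IRF composite, spelled GGAANNGAA, was in 1 promoter footprint, in *Cd22*, beside 0.336%, and in no inside footprint, beside 0.695%. Of promoter and inside footprints together, the remaining letters were in none of the members' and in few of all. For the octamer (ATGCAAAT) the share of all was 0.0805%. For NF-kB (GGANTTTCC) the share of all such footprints was 0.0632%. For MEF2 (TAAAAATAG) it came to 0.0143%. GATA letters, searched as AGATAA, were in 0.769% of all footprints of these classes. KLF letters, searched as CCACACCC, were in 0.515% of them, and the AP-1 letters TGANTCA were in 0.426%. None of these small counts was tested against its share.

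The core of the CTCF consensus (AGGGGGC) was found in some of the members' sites. CTCF is the factor that organises chromatin loops and insulators. Its core lay in a footprint of both libraries in 3 of the 6 strongest inside sites, those of *Blnk*, *Btk* and *Syk*, of which the *Btk* site was at percentiles 66.9 and 48.4 of all peaks, and the *Blk* site had no such footprint. It also lay in a footprint of both libraries in the *Cd22* promoter sites at the internal and at the most upstream start. It was in 3 of the members' 87 promoter footprints, beside 2.61% of all promoter footprints. Among the members' 52 inside footprints it was in 3 (5.77%), beside 2.73% of all inside footprints. In the genome as a whole this share was higher at stronger sites. Among all sites outside promoters the core lay in a footprint of both libraries in 8.62%, and among those at or above percentile 85 in both libraries in 21.4%. The members' sites gave 8 of 75 (10.7%), and their strong ones 3 of 11 (27.3%). With the wider core AGNGGGC, chosen after the data were seen, the members' sites gave 13 of 75 (17.3%), beside 21.2% of all. Their strong sites gave 5 of 11 (45.5%), beside 42.0% of all strong sites. With that wider core, the strongest distal sites of *Btk* and *Syk* also matched, and so did the *Syk* site that was higher in replicate 2. That *Syk* site is printed on the strand of the gene, with capitals as before.
*Syk* distal site, chr13:52651441-52651640: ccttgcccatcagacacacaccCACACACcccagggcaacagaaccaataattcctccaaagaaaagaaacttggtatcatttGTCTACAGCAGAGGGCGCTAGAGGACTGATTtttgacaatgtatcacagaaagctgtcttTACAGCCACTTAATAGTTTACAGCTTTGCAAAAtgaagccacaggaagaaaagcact

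Promoter windows of RefSeq (GRCm38.p6, 250 bases before to 50 after the start) were available for 6 of the 9 genes, with 7 windows. *Cd79b*, *Ms4a1* and *Blk* had no window there. The octamer (ATGCAAAT) was in the *Blnk* window, beside 1.74% of the 32817 windows. EBF was in the *Cd22* window (13.7% of windows), PU.1/SPI-B in that of *Btk* (13.6%), the E-box CAGCTG in that of *Syk* (16.3%) and SP in that of *Cr2* (35.6%). The ETS-IRF composite was in that of *Cd22* (8.25%), and the *Cd79a* window held none of the 13 consensus sequences. A match here describes letters in a window and not binding.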

How the data were processed

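The DNase-seq files of 2 spleen libraries were used as deposited (mm10). Each list came from the filtered alignment of 1 library, per the deposited README. Which aligner and callers were used, and the read depth, is not stated there or in the labels. The signal per peak is the authors' cut density as deposited. The false discovery rates (a kind of q-value) were deposited by the authors per stretch of bases. Footprints were deposited with 0.01 in the p-value column on every line, so they were not ranked.

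The longer peak list of each library was used. Peaks overlapping by at least 1 bp were merged into sites. Promoters were 500 bp either side of any GENCODE M21 TSS, distal sites lay outside promoters and genes within 50 kb of the gene, and percentiles were taken within a library. Footprints counted when they lay within a peak of their own library. Sequences came from GRCm38.p6. Python 3.11.15, pandas 2.3.3, numpy 2.4.6, scipy 1.17.1, pysam 0.24.0 and matplotlib 3.10.9 were used. Tested on simulated data, the counting recovered 200 of 200 planted genes.

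With 2 libraries of 1 group no test was run, and counts stand beside the share of all genes or sites. The members, lists and consensus sequences were chosen with earlier results of these data known. The named sites were each member's promoter sites and its strongest inside and distal site. From the other pathway genes, the 3 with the highest promoters, those without a promoter peak in both libraries and the gene with most sites inside (*Prkcb*, 21) were named. Alternatives covered the promoter window, TSS set, peak list, signal minimum, merging, distal window, footprints and each library left out. Some items are not reported here.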

Additional observations from a re-analysis of the deposited data

How the results depend on the processing

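Of 34 alternatives to the 5 main counts and medians, 28 stayed within 1.5 times the count or within the spread between libraries. All 9 members kept their promoter peak under every alternative but one, keeping peaks at or above their library's median signal, which left 8. With a library left out, only a peak in the kept library was asked for, so this count could not fall. Nor could it fall with the wider promoter window of 1000 bp. With a library left out, the median promoter percentile was likewise bound to stay within the spread between libraries. Sites inside the members numbered 26, and 16 with the shorter deposited list and 17 with peaks at or above the median signal. The median promoter percentile of the members (mean of the 2 libraries) was 32.0, and 21.5 with peaks at or above the median signal. The median of distal sites was 6, and 12 within 100 kb. With either library left out it lay from 9 to 10, since sites then need a peak in 1 library only. Footprints overlapping between libraries numbered 40, and 22 with footprints of at least 10 bp. With 1 library such an overlap cannot be given. Of 27 alternatives for consensus letters 5 moved a count by over 1.5 times, among them PU.1/SPI-B with 1 instead of 4 when footprints were not extended, and the octamer with 2 instead of 0 when extended by 10 bp. The wider CTCF core gave 7 footprints. The cause of these changes was not tested, other than that stricter lists hold fewer peaks. No paired analysis was possible because there was a single group. Read depth is unknown, so a site without a peak was not detected in these lists and is not shown to be closed.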
